A study of Mus musculus with 12 samples.

Results

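The 8 genes of the pentose phosphate pathway described here were Tkt, Pgd, G6pdx, Taldo1, Pgls, Rpia, Rpe and H6pd. They were taken by gene symbol from the 24787 genes counted in mouse liver, and all 8 had enough counts to be among the 14172 genes tested. The members were chosen by what was measured between HFD+MEC1 and HFD, where Tkt was among the 4 genes called, so their values in that comparison are a description, with no test. The series, whose title concerns PROTACs (molecules that bring proteins to a ubiquitin ligase) and mitophagy, tested MEC1, of which the sources used here give only the code name. C57Bl/6 mice ate a normal diet (ND, 4 samples) or a high-fat diet for 2 months, and the high-fat mice were then randomised to daily intraperitoneal vehicle (HFD, 4 samples) or MEC1 at 0.5 mg/kg (HFD+MEC1, 4 samples). The sources used here give no allele, sex, age or dosing period, and do not say whether ND mice were injected, so HFD against ND carries any effect of the injections. They also do not say that each sample is a separate mouse, so p-values measure only the spread between these samples.

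The pentose phosphate pathway branches from glycolysis at glucose phosphate. In its oxidative branch G6pdx encodes glucose phosphate dehydrogenase, Pgls the lactonase that follows it and Pgd phosphogluconate dehydrogenase; the dehydrogenases reduce NADP to NADPH, which liver uses for fatty acid and sterol synthesis and for glutathione reduction. In the reversible non-oxidative branch Rpia and Rpe interconvert pentose phosphates, and transketolase (Tkt, which needs thiamine pyrophosphate) and transaldolase (Taldo1) exchange carbon units with glycolytic intermediates. H6pd encodes a separate dehydrogenase and lactonase inside the endoplasmic reticulum, where its NADPH serves steroid reduction by Hsd11b1. Transcription of these genes is known to respond to carbohydrate and to insulin, and several are known targets of the antioxidant regulator NRF2 (Nfe2l2).

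The promoters of Tkt and Pgd, the cytosolic members that differed from ND, and of G6pdx, the entry enzyme, are shown to let the start regions be compared. Each sequence is the 250 bases before a start site in the RefSeq promoter table (GRCm38.p6, the assembly that mm10 names), read on the gene's strand, and capitals mark a match to TGACNNNGC, the core of the antioxidant response element bound by NRF2.
Tkt (chr14:30548881-30549130, plus strand): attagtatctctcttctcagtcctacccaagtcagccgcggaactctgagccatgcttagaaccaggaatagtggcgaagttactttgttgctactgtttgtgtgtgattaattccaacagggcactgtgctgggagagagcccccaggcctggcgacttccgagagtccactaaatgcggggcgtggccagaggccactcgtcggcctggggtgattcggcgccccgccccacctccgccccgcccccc
Pgd (chr4:149166706-149166955, minus strand): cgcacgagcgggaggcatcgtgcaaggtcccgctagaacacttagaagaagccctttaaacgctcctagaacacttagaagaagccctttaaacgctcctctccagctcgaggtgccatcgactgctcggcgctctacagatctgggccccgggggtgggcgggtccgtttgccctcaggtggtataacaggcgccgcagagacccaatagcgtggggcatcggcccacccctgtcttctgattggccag
G6pdx (chrX:74428881-74429130, minus strand): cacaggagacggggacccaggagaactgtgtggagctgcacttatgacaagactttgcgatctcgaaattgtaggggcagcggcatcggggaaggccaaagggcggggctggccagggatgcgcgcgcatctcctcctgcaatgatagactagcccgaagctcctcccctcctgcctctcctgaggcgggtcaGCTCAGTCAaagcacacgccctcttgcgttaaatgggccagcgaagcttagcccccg
All 8 genes were matched in that table, with 9 windows in all, since a second start is listed for Pgd. The bases just before that second start have the form of the end of an intron, so its window may not be a promoter. Over the full 300-base windows, which add the 50 bases after the start, TGACNNNGC was found on either strand in 2 of the 9: in G6pdx as GCTCAGTCA, the motif read on the opposite strand to the gene, at position -57 from the start, and in the other Pgd window (chr4:149166033-149166332) as TGACATTGC at position 4. The share over all 32851 windows of the table was 12.4%. CACGTG, the E-box that occurs in pairs in a carbohydrate response element, was found in 0 of the 9 windows and in 7.15% of all windows. These are matches of letters only, and the Pgd match may lie outside a promoter.

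Libraries held 39916405 to 51340317 counts, and a count of 3 corresponded to 0.0590 to 0.0770 CPM, the unit of level below, which scales counts to a common library total. Hepatocyte markers (6 of 6 tested) summed to 61611 to 92843 CPM in the 12 libraries, so the defining genes of liver were present in each. In a principal component analysis, HFD+MEC1 replicate 3 stood farthest out on the second axis (18.1% of variance) at -55.9. On that axis HFD replicate 4 at -7.93 and HFD+MEC1 replicate 1 at 6.72 lay between the other HFD and the other HFD+MEC1 libraries. In whole liver, fewer cells of a type and less RNA per cell cannot be told apart.

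Per kilobase of gene, Taldo1 and H6pd were the most abundant of the 8 in ND liver, and G6pdx and Rpia the least. Levels per length are the deposited RPKM, which scale reads by gene length and sequencing depth, given as mean ± SD with n = 4. In ND, Taldo1 stood at 59.4 ± 3.53 RPKM and H6pd at 49.96 ± 6.54 RPKM, and their libraries overlapped. Tkt at 24.1 ± 2.61 RPKM and Pgls at 20.3 ± 4.07 RPKM also overlapped, Pgd stood below both at 14.5 ± 1.45 RPKM and Rpe below Pgd at 10.03 ± 1.102 RPKM. G6pdx at 2.11 ± 0.225 RPKM and Rpia at 1.78 ± 0.358 RPKM overlapped at the bottom. In HFD+MEC1 the order at the top was turned: H6pd stood at 83.9 ± 26.0 RPKM, from 65.0 to 122, and Taldo1 at 59.1 ± 3.67 RPKM, from 55.5 to 63.3. The transketolase paralogues Tktl1 and Tktl2 had 0 counts in all 12 libraries, and G6pd2, a close copy of G6pdx, had 0 counts in 11 of them, so Tkt was the only one of these transketolase genes with reads.

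**Figure D1:**
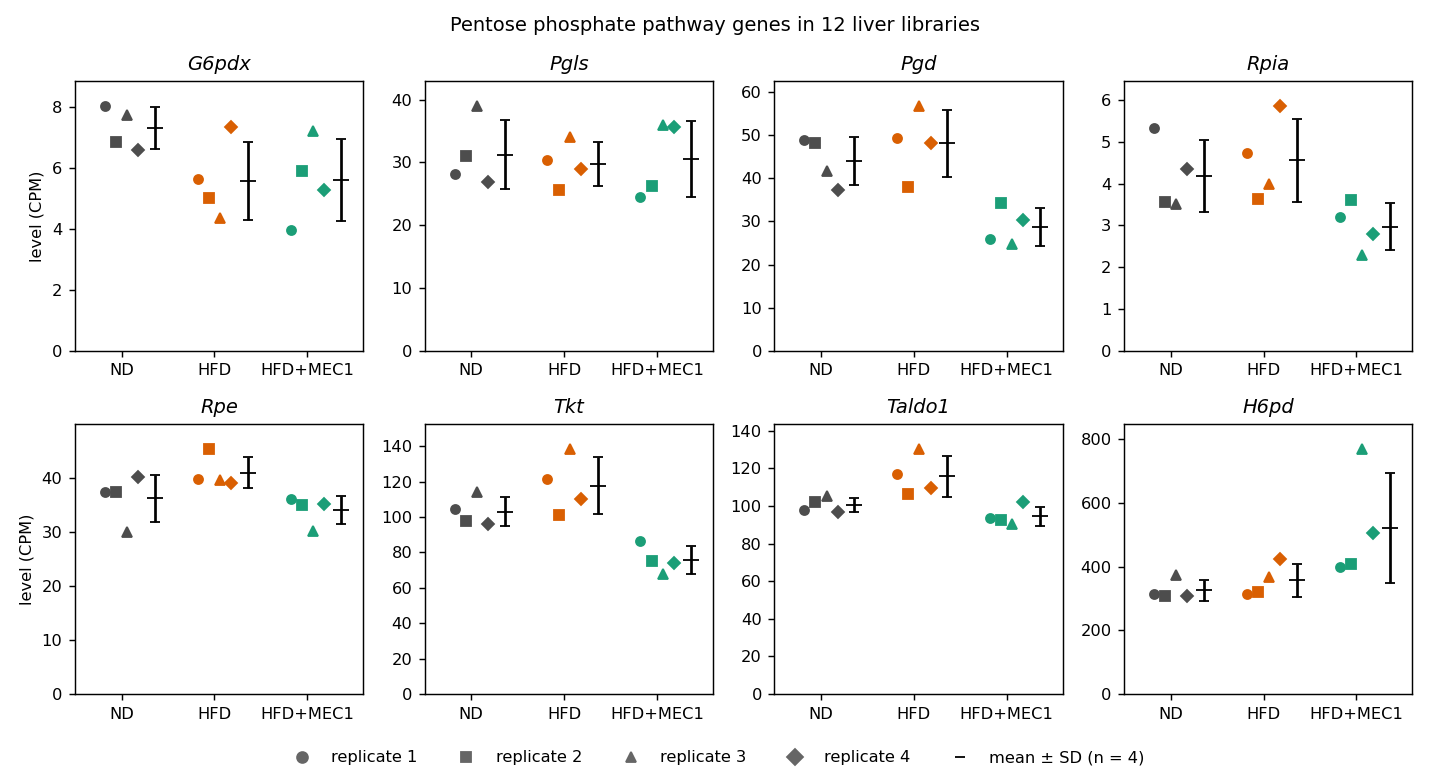
Level (CPM, vertical axis from 0) of the 8 genes in each library, by group; markers show the replicate number and black bars the mean ± SD of 4 libraries. Tkt, Pgd, Rpia, Rpe and Taldo1 sit lower in HFD+MEC1 than in every HFD library, while H6pd is highest in HFD+MEC1, with replicate 3 at 769.7 CPM.

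HFD was compared with ND, groups that differ in diet and may also differ in injection. None of the 8 genes passed: 0 of 8 had an adjusted p under 0.05 with edgeR, where 6.30% of all tested genes did (3.35% higher and 2.95% lower), and DESeq2 and limma-voom called 0 each. Only Taldo1, 1 of 8, had an unadjusted p under 0.05, where 20.7% of all genes did. Of the 8, 6 had a positive log2 fold change and 2 a negative one, with a median of 0.13, where the median of all genes was -0.0035. Between HFD+MEC1 and ND 3 of the 8 passed, where 4.54% of all genes did: Tkt and Pgd fell (2.40% of all genes were called lower) and H6pd rose (2.15% were called higher). Without ND replicate 1, HFD+MEC1 replicate 3 or HFD+MEC1 replicate 4 the only call of the 3 left was that of Pgd. The groups did not overlap for the same 3 genes, where 11% of all genes did not (5.13% higher and 5.84% lower), and 19.1% of all genes had an unadjusted p under 0.05. This comparison, like the diet one, shares libraries with the comparison in view of which the pathway was chosen. In the randomised comparison, HFD+MEC1 against HFD, 5 of the 8 were lower without overlap between the groups and 0 higher; of all genes 7.11% did not overlap (3.98% lower and 3.13% higher). Only Tkt was called there, 1 of 8 beside 0.0282% of all genes (0.0212% lower and 0.00706% higher); that call belongs to how the pathway was chosen, and it was lost without any 1 of 8 libraries and under 6 of 10 other settings, with log2 fold changes from -0.71 to -0.55 over the libraries left out.

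**Figure D2:**
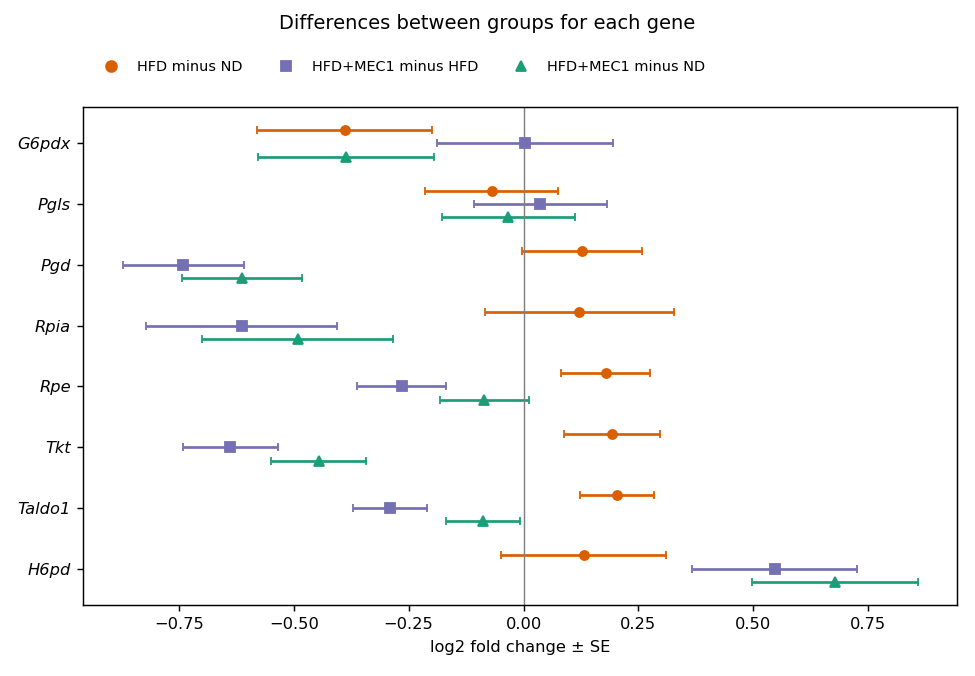
Log2 fold change ± SE (horizontal axis) of each gene in the 3 comparisons, by marker shape and colour. The values of HFD against ND lie near 0, from -0.39 to 0.20, those of Tkt and Pgd are negative in both comparisons that involve HFD+MEC1, and those of H6pd are positive.

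G6pdx, which encodes the enzyme that commits glucose phosphate to the pathway, lies on chromosome X (74409483 to 74429194). Its level was 8.06, 6.88, 7.73 and 6.60 CPM in ND replicates 1 to 4, 5.65, 5.01, 4.36 and 7.35 CPM under HFD and 3.98, 5.92, 7.21 and 5.30 CPM in HFD+MEC1. Both high-fat groups reached below ND but overlapped it through HFD replicate 4 and HFD+MEC1 replicate 3. The log2 fold change was -0.39 ± 0.19 in HFD against ND (edgeR adjusted p = 0.259, 95% interval -0.79 to 0.01) and -0.39 ± 0.19 in HFD+MEC1 against ND (edgeR adjusted p = 0.287). Between HFD+MEC1 and HFD it was 0.0028 ± 0.19, with an interval from -0.40 to 0.41. Of its exonic bases 13.6% overlap Ikbkg on the opposite strand, and strand use in counting is not stated.

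Pgls, which encodes the lactonase, lies on chromosome 8 (71592176 to 71601092) and showed no pattern by group. It ranged from 26.9 to 39.1 CPM in ND, 25.6 to 34.1 CPM under HFD and 24.5 to 35.9 CPM in HFD+MEC1, and its log2 fold changes were -0.07 ± 0.14, 0.04 ± 0.14 and -0.03 ± 0.14 for HFD against ND, HFD+MEC1 against HFD and HFD+MEC1 against ND. The sign of each of these turned when library totals replaced the trimmed-mean (TMM) scaling. Its exons share 20.6% of their bases with Fam129c on the same strand, so some reads cannot be assigned.

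Pgd, which encodes the enzyme that makes the pentose phosphate and a second NADPH, lies on chromosome 4 (149149991 to 149166771). Its level was 48.9, 48.1, 41.8 and 37.3 CPM in ND, 49.3, 38.1, 56.9 and 48.1 CPM under HFD and 25.9, 34.3, 24.7 and 30.2 CPM in HFD+MEC1. Every HFD+MEC1 library was below every library of the other groups, which overlapped each other. Against ND it fell by 0.61 ± 0.13 on the log2 scale (edgeR adjusted p = 0.0135), and the call held without each of the 12 libraries in turn, with adjusted p up to 0.0480; it was lost on RPKM with a pseudocount of 1 (limma adjusted p = 0.0551) or with no low-value filter (limma adjusted p = 0.0889). Against HFD the mean was 28.8 ± 4.39 beside 48.1 ± 7.73 CPM, a log2 fold change of -0.74 ± 0.13. In HFD against ND it was 0.13 ± 0.13 (edgeR adjusted p = 0.637).

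Rpia and Rpe, the isomerase and the epimerase of pentose phosphates, lie on chromosome 6 (70765720 to 70792232) and chromosome 1 (66700831 to 66719805). Rpia was 5.33, 3.56, 3.504 and 4.35 CPM in ND, 4.73, 3.62, 4.00 and 5.87 CPM under HFD and 3.20, 3.60, 2.28 and 2.80 CPM in HFD+MEC1. With 89 to 266 counts a library it is among the least precisely measured of the 8; HFD+MEC1 replicate 2 lay just under HFD replicate 2. Its log2 fold change was -0.61 ± 0.21 in HFD+MEC1 against HFD and -0.49 ± 0.21 against ND (edgeR adjusted p = 0.205). Rpe was 37.3, 37.3, 30.0 and 40.0 CPM in ND, 39.8, 45.3, 39.6 and 39.0 CPM under HFD and 36.0, 34.9, 30.2 and 35.1 CPM in HFD+MEC1. The HFD libraries of Rpe were all above those of HFD+MEC1 (log2 fold change -0.26 ± 0.10), and ND overlapped both. The diet comparison gave 0.12 ± 0.21 for Rpia (edgeR adjusted p = 0.793) and 0.18 ± 0.10 for Rpe (edgeR adjusted p = 0.314). Of the exonic bases of Rpe 17.9% overlap Kansl1l on the opposite strand.

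Tkt, transketolase, lies on chromosome 14 (30548359 to 30574720), and none of the 50-base stretches of its transcripts occurs in a transcript of another gene. Its level was 104, 97.5, 114 and 96.1 CPM in ND, 121, 101, 139 and 110.1 CPM under HFD and 86.2, 74.9, 67.7 and 73.8 CPM in HFD+MEC1. All 4 HFD+MEC1 libraries lay below all ND and HFD libraries, and the closest was replicate 1, the library that lay toward HFD over all genes. Against ND, Tkt fell by 0.45 ± 0.10 on the log2 scale (edgeR adjusted p = 0.0221). That call was lost without ND replicate 1 or 3 or HFD+MEC1 replicate 3 or 4, with adjusted p of at most 0.0579 and log2 fold changes from -0.44 to -0.395. With library totals the value was -0.37 ± 0.13 (edgeR adjusted p = 0.138), and the call was also lost under all 3 RPKM settings, where it was -0.37, -0.35 and -0.37 (limma adjusted p = 0.147, 0.159 and 0.209). Against HFD the means were 75.6 ± 7.73 and 118 ± 16.1 CPM, a log2 fold change of -0.64 ± 0.10. In HFD against ND the value was 0.19 ± 0.10 (edgeR adjusted p = 0.313), with an interval from -0.03 to 0.41.

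Taldo1, transaldolase, the partner of Tkt in the same exchange of carbon units, lies on chromosome 7 (141392199 to 141402968). It stood at 97.8, 102, 105 and 96.9 CPM in ND, 117, 106, 130.5 and 109 CPM under HFD and 93.4, 92.4, 90.6 and 102 CPM in HFD+MEC1. It was the only one of the 8 whose HFD libraries all lay above ND, where groups did not overlap for 14.3% of all genes, 7.46% higher and 6.81% lower (log2 fold change 0.20 ± 0.08, edgeR adjusted p = 0.154). HFD+MEC1 overlapped ND (-0.09 ± 0.08, edgeR adjusted p = 0.614) and lay below every HFD library (-0.29 ± 0.08). A pseudogene, Gm17823, shares 6.67% of the 50-base stretches of its transcripts.

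H6pd, the dehydrogenase of the endoplasmic reticulum, lies on chromosome 4 (149979475 to 150009023). It moved opposite to Tkt and Pgd in both comparisons that involve HFD+MEC1. In HFD against ND its value was positive like theirs (log2 fold change 0.13 ± 0.18, edgeR adjusted p = 0.738). Its level was 313, 309, 374 and 307 CPM in ND, 315, 319, 368 and 424 CPM under HFD and 399, 409, 769.7 and 507 CPM in HFD+MEC1. All 4 HFD+MEC1 libraries were above ND, replicate 3 was far above the rest, and HFD replicate 4 lay within the range of HFD+MEC1. Against ND it rose by 0.68 ± 0.18 on the log2 scale (edgeR adjusted p = 0.0446). Without HFD+MEC1 replicate 3 the value was 0.43 ± 0.13 (edgeR adjusted p = 0.0786), and the call was lost without any 1 of 8 libraries, with limma-voom, with only those 2 groups in the fit, and with RPKM unfiltered for low values. Those libraries were ND replicates 1, 2 and 4, HFD replicates 1, 2 and 3 and HFD+MEC1 replicates 3 and 4, with an adjusted p of at most 0.117. Compared with HFD it was 0.55 ± 0.18, and 0.30 without replicate 3. Replicate 3 also had the lowest summed hepatocyte markers, 61611 CPM, where replicates 1, 2 and 4 had 73387 to 85779 CPM, and the highest summed neutrophil markers, 18.5 CPM against 5.96 to 8.67 CPM. Most of each hepatocyte sum was Alb, at 50695 to 70762 CPM in HFD+MEC1. The part of these markers in the result was not tested. Genes that work with H6pd did not pass: Hsd11b1, the steroid reductase, stood at 531 ± 31.4, 608 ± 82.1 and 475 ± 91.6 CPM in ND, HFD and HFD+MEC1, and Slc37a4, the carrier that brings glucose phosphate into the reticulum, at 97.2 ± 11.8, 110.6 ± 21.6 and 88.2 ± 17.6 CPM.

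Ratios of genes within a library do not depend on how libraries are scaled. The ratio of Tkt to Taldo1 RPKM was 0.422, 0.378, 0.430 and 0.393 in ND and 0.411, 0.377, 0.420 and 0.398 in HFD, which overlapped closely. In HFD+MEC1 it was 0.365, 0.321, 0.296 and 0.287, lower in every library. Tkt made up 24.0 to 27.1% of the summed RPKM of Rpia, Rpe, Tkt and Taldo1 in ND, 23.5 to 26.5% in HFD and 19.5 to 23.3% in HFD+MEC1. So Tkt differed more than its partner in the same libraries, by description. The ratio of H6pd to G6pdx RPKM was 20.6 to 25.7 in ND, 29.5 to 44.8 in HFD and 36.6 to 56.6 in HFD+MEC1, so that both high-fat groups lay above ND and overlapped each other. Summed RPKM of the oxidative genes G6pdx, Pgls and Pgd were 36.9 ± 4.47 in ND, 39.5 ± 6.71 in HFD and 32.6 ± 2.76 in HFD+MEC1, and overlapped in all groups. Those of the 4 non-oxidative genes were 95.4 ± 5.11, 117 ± 15.8 and 89.3 ± 7.56, with every HFD library above every library of the other groups. The margin was narrow, with a lowest HFD sum of 104.2 and a highest ND sum of 102.7. Unlike the ratios, these sums depend on how libraries are scaled. With RPKM at a pseudocount of 0.1, the median log2 fold change of all genes in HFD against ND was 0.084.

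**Figure D3:**
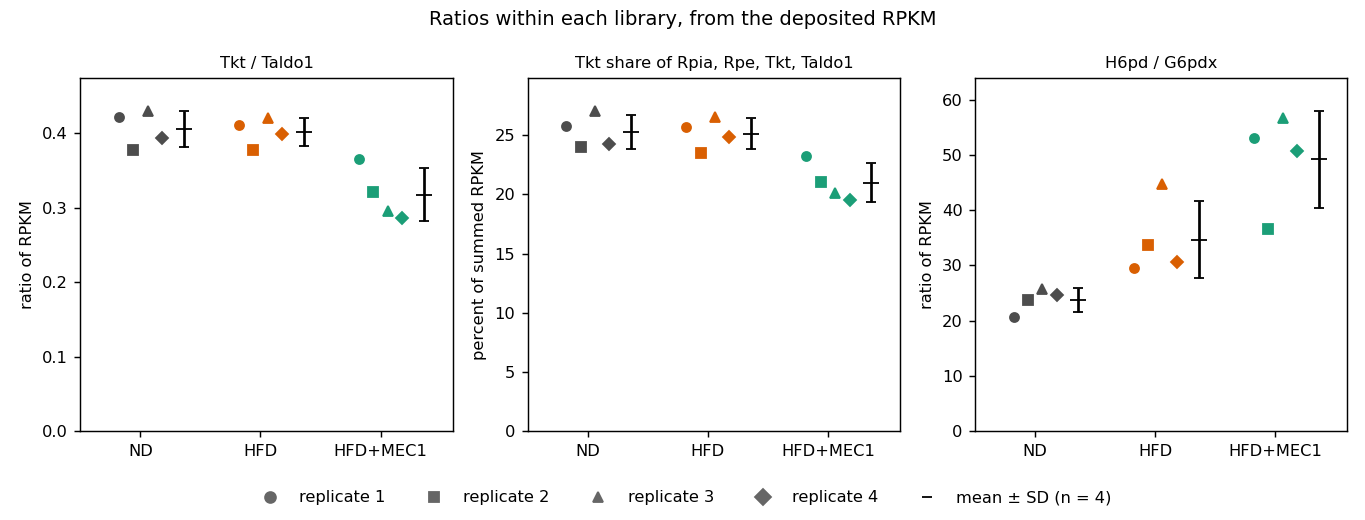
Ratios within each library from the deposited RPKM: Tkt over Taldo1, Tkt as a percentage of the 4 non-oxidative genes, and H6pd over G6pdx, each axis from 0, with mean ± SD of 4 libraries. The Tkt to Taldo1 ratio of the HFD+MEC1 libraries, 0.287 to 0.365, lies below all others, and the H6pd to G6pdx ratio of ND, 20.6 to 25.7, lies below all others.

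Related genes were described in 6 lists covering 81 genes, of which 76 were tested. In HFD against ND 10 of the 76 rose and 3 fell, in HFD+MEC1 against ND 0 rose and 8 fell, and in HFD+MEC1 against HFD edgeR called 0. Of all tested genes 3.35% rose and 2.95% fell in the first, and 2.15% and 2.40% in the second. In HFD+MEC1 against HFD 0.0282% were called. In the last comparison 60 of 76 were negative with a median of -0.19, beside 0.0060 over all genes; 32 had an unadjusted p under 0.05, where 14.8% of all genes did, and DESeq2 called 18, limma-voom 0. Without HFD+MEC1 replicate 1 edgeR called 15 of them and without HFD replicate 4 it called 5, all lower. Over all genes edgeR called 4 in this comparison, 460 without HFD+MEC1 replicate 1 and 72 without HFD replicate 4. DESeq2 called 365 genes and limma-voom 1. The 2 lists nearest the pathway had medians of -0.33 (15 genes of pentose and hexose phosphate) and -0.38 (10 genes of the glucuronate and xylulose route) there, and 13 and 9 of their genes were negative. The 13 calls on HFD became 7 or 8 when ND replicate 1 or 3 was left out and 5 when ND replicate 4 or HFD replicate 3 was; the 8 calls of HFD+MEC1 against ND became 5 when ND replicate 1 or HFD+MEC1 replicate 3 was.

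Among genes that share intermediates with the pathway, G6pc, which releases free glucose, fell in HFD+MEC1 against ND from 425 ± 176 to 185 ± 51.5 CPM (edgeR adjusted p = 0.0356), a call lost without ND replicate 1, HFD replicate 2 or 3 or HFD+MEC1 replicate 2, 3 or 4 (adjusted p up to 0.0908) and under 5 of 10 other settings. Cryl1, of the glucuronate route, fell from 13.8 ± 1.77 to 5.67 ± 0.909 CPM between ND and HFD+MEC1 (edgeR adjusted p = 0.000583), and held without each library in turn.

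Of 12 tested genes for other NADPH sources 1 fell on HFD and 3 fell in HFD+MEC1 against ND. Of all tested genes 2.95% and 2.40% fell in these comparisons. Aldh1l1, a folate enzyme that makes NADPH, fell from 1268 ± 94.4 CPM in ND to 744 ± 181 CPM in HFD (edgeR adjusted p = 0.00731) and stood at 719 ± 79.1 CPM in HFD+MEC1 (edgeR adjusted p = 0.00621 against ND). Idh2, the mitochondrial isocitrate dehydrogenase, was 72.6 ± 3.82 CPM in ND, 81.1 ± 14.99 CPM under HFD and 46.9 ± 8.80 CPM in HFD+MEC1, where it fell against ND (log2 fold change -0.63 ± 0.14, edgeR adjusted p = 0.0143). Both calls against ND held without each library, that of Idh2 not with library totals or RPKM. Mthfd1, a further folate enzyme, fell from 227 ± 6.98 to 177 ± 19.7 CPM between ND and HFD+MEC1 (edgeR adjusted p = 0.0331), a call lost without any 1 ND library or HFD+MEC1 replicate 2, 3 or 4 (adjusted p up to 0.0833) and under 5 of 10 other settings.

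Of 16 NADPH users, 2 rose and 1 fell on HFD, where 3.35% of all genes rose and 2.95% fell. Por, the reductase that feeds cytochromes P450, fell from 115 ± 7.30 to 70.1 ± 10.9 CPM (edgeR adjusted p = 0.00638), a call lost only on RPKM unfiltered for low values among the 10 other settings. Hsd17b12, of fatty acid elongation, rose from 183 ± 16.9 to 248 ± 23.2 CPM (edgeR adjusted p = 0.0141; lost without ND replicate 4 or HFD replicate 3, adjusted p up to 0.0605). Fasn, fatty acid synthase, was 808 ± 171 CPM in ND, 788 ± 247 CPM under HFD and 286 ± 135 CPM in HFD+MEC1; it fell against ND (edgeR adjusted p = 0.0481), but the call was lost without any 1 of 10 libraries, all but HFD replicate 2 and HFD+MEC1 replicate 1 (adjusted p up to 0.121), and under 5 of 10 other settings.

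Thiamine supply bears on transketolase through its cofactor. Of 11 tested genes of that list 2 rose on HFD, where 3.35% of all genes did. In either comparison that involves HFD+MEC1 0 passed. Pdhb, a subunit of pyruvate dehydrogenase, rose from 88.0 ± 7.71 to 113 ± 8.60 CPM (edgeR adjusted p = 0.0366; lost without ND replicate 1, 3 or 4 or HFD replicate 1, 2 or 3, adjusted p up to 0.128).

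Of 12 regulators and their targets, 5 rose and 1 fell on HFD, and 2 fell in HFD+MEC1 against ND. Of all genes 3.35% rose and 2.95% fell on HFD, and 2.40% fell in HFD+MEC1 against ND. Mlxipl, the carbohydrate response factor ChREBP, fell from 97.6 ± 8.58 CPM in ND to 62.4 ± 3.18 CPM in HFD (edgeR adjusted p = 0.00284) and stood at 68.5 ± 11.9 CPM in HFD+MEC1 (edgeR adjusted p = 0.0135 against ND). Srebf1, a lipogenic factor, was 293 ± 35.3, 193 ± 29.9 and 108 ± 32.8 CPM in the order ND, HFD and HFD+MEC1, and fell between ND and HFD+MEC1 by 1.44 ± 0.19 on the log2 scale (edgeR adjusted p = 0.00128). Gclc, an NRF2 target of glutathione synthesis, rose on HFD from 287 ± 27.3 to 573 ± 123 CPM (edgeR adjusted p = 0.00480) and stood at 365 ± 103 CPM in HFD+MEC1. In the same list Gclm stayed level, at 143 ± 8.12, 145 ± 11.5 and 144 ± 3.05 CPM in ND, HFD and HFD+MEC1. Srxn1 was called higher on HFD, from 31.5 ± 3.59 to 48.0 ± 11.5 CPM. The Srxn1 call was lost without ND replicate 1, 3 or 4 or HFD replicate 3. These calls of Mlxipl, Srebf1 and Gclc held without each library; that of Mlxipl in HFD+MEC1 against ND was lost on RPKM. Pklr, the ChREBP target pyruvate kinase, rose on HFD from 155 ± 21.2 to 293 ± 85.1 CPM (edgeR adjusted p = 0.0408), a call lost without any 1 ND library, HFD replicate 1 or 3 or HFD+MEC1 replicate 2 or 4 (adjusted p up to 0.117), with no count filter and on unfiltered RPKM; some of its exonic bases overlap Hcn3 on the opposite strand.

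**Figure D4:**
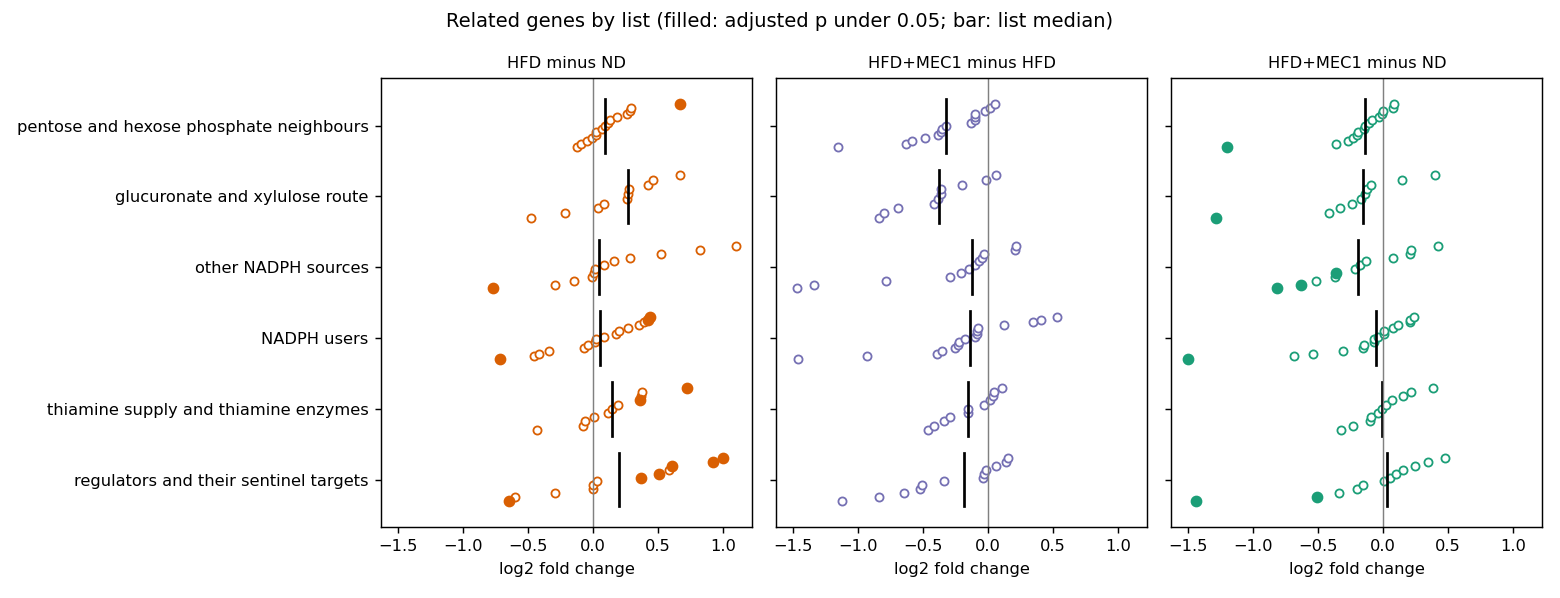
Log2 fold change (horizontal axis) of each tested gene of the 6 lists in the 3 comparisons; filled points have an edgeR adjusted p under 0.05 and black bars are list medians. In the middle panel, HFD+MEC1 against HFD, no point is filled and the 6 medians lie between -0.38 and -0.12.

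By the root-mean-square difference of log2 CPM over the 12 libraries, each gene centred on its own mean, the 5 genes most like Tkt were Eno1b and Eno1 (both 0.11), Ptpmt1 (0.12), Gpi1 (0.13) and Idh2 (0.14). Eno1 encodes enolase and shares 26.0% of the 50-base stretches of its transcripts with other genes, mostly its copy Eno1b, so these count as 1 profile. Gpi1, the glucose phosphate isomerase that links the pathway to glycolysis, stood at 86.7 ± 10.8, 106 ± 16.9 and 75.6 ± 7.55 CPM in ND, HFD and HFD+MEC1. Ptpmt1, a mitochondrial phosphatase, stood at 34.5, 39.0 and 29.0 CPM, but 52.3% of its exonic bases overlap other genes on the opposite strand. Among the other members Pgd ranked 57 and Taldo1 81 in likeness to Tkt of 14171 genes, Rpe 1036 and Rpia 1048, and Pgls 4948, G6pdx 8817 and H6pd 11560 were farther. These are descriptions over libraries that include the comparison by which Tkt was chosen.

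**Figure D5:**
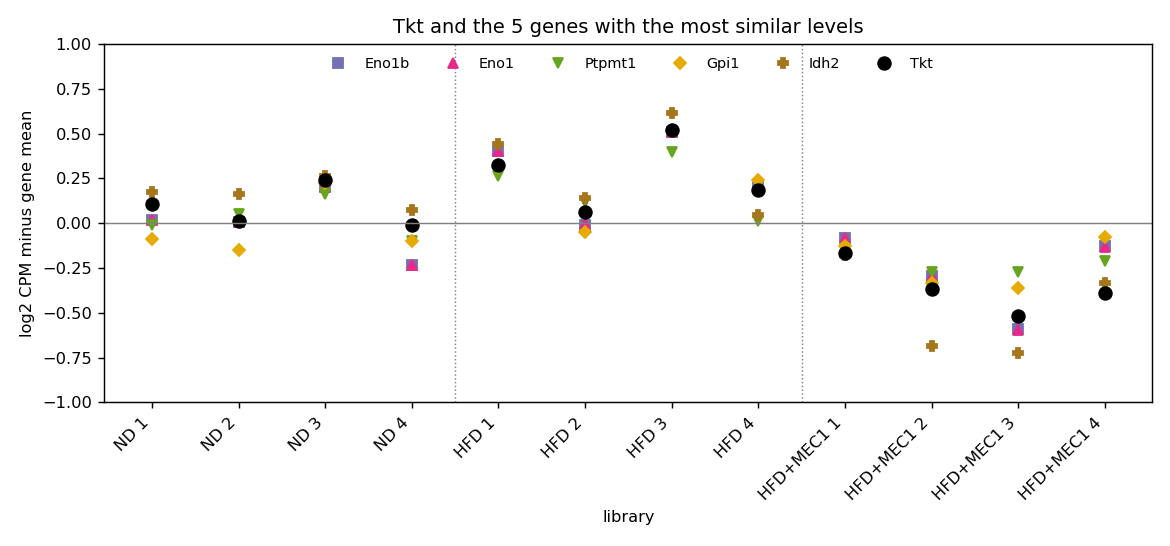
Log2 CPM minus each gene's mean (vertical axis) in the 12 libraries (horizontal axis) for Tkt and the 5 genes most like it; dotted lines divide the groups. Tkt is highest in HFD replicate 3, at 0.52, as are the other 5 genes, and lowest in HFD+MEC1 replicate 3, at -0.52.

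Markers of other cells were read beside these results. Proliferation markers (6 of 6 tested) had summed levels of 7.01 to 14.96 CPM in ND, 12.2 to 13.8 CPM under HFD and 4.95 to 9.22 CPM in HFD+MEC1, so that the sum was lower in HFD+MEC1 than in HFD together with Tkt and Pgd. In that comparison 5 of the 6 were negative and 1 positive. The groups did not overlap for 2 of them, where 7.11% of all genes did not. With edgeR 0 of the 6 passed there, and their part in the result was not tested. Macrophage markers (10 of 10 tested) summed to 282 to 432 CPM in ND, 351 to 543 CPM under HFD and 407 to 553 CPM in HFD+MEC1. Periportal markers (6 of 6 tested), of the hepatocytes near the portal vein, summed to 3526 to 5171, 3203 to 3649 and 2745 to 4350 CPM. On HFD 3 fell and 2 of the 6 were positive, and in HFD+MEC1 against ND 4 fell and 1 was positive. Of all genes 2.95% and 2.40% fell in these comparisons. Pericentral markers summed to 3944 to 5988, 4837 to 7343 and 4547 to 7100 CPM. The part of both lists in the results was not tested. Of 5 adipocyte markers Lep and Plin1 had 0 counts in all 12 libraries and Adipoq in 10, and only Cfd, which encodes complement factor D, was tested. Cfd was 0.0414 to 1.16 CPM in ND, 2.43 to 14.2 CPM in HFD, above every ND library, and 0.157 to 13.3 CPM in HFD+MEC1; it did not pass on HFD (log2 fold change 3.63 ± 1.28, edgeR adjusted p = 0.140). Sinusoidal endothelium markers (8 of 8 tested) summed to 209 to 330 CPM in ND, 289 to 356 CPM in HFD and 336 to 397 CPM in HFD+MEC1, above every ND library, together with the calls of Tkt, Pgd and H6pd; 8 of 8 were positive against ND and 1, Clec4g, rose. Cholangiocyte markers (6 of 6 tested) summed to 60.8 to 90.9, 39.9 to 59.7 and 36.9 to 90.1 CPM, and against ND in HFD+MEC1 their median was -0.90 and 1, Epcam, fell, where 2.40% of all genes did. There 5 of the 6 were negative and 1, Sox9, was positive, at 12.1 ± 1.92 CPM in ND and 15.4 ± 6.61 CPM in HFD+MEC1. Stellate cell and fibroblast markers (8 of 8 tested) were all negative in that comparison with a median of -0.38 and 0 called, and their sums overlapped in all groups. The part of these cells in the results was not tested. Neutrophil markers (6 of 8 tested) summed to at most 18.5 CPM in any library, and Elane and Mpo had 0 counts in 2 and 5 libraries.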

How the data were processed

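Liver RNA sequencing of 12 samples was analysed, 4 in each of 3 groups taken from the sample titles. The authors deposited raw read counts by gene symbol, 1 file a sample, which sum to different totals, and a table of RPKM values, per the file headers; how RPKM lengths and totals were set is not given in the sources used here. STAR 2.7.10a and mm10 are named in the submitters' processing notes; the counting tool, annotation and strand use are not given in the sources used here. A further 12 columns of the RPKM table match no sample and were not used. Even numbers made up 70.1 to 74.7% of deposited values from 1 to 20, so counting error may exceed what the totals give. Replicates differed by more than counting error.

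Counts were filtered with filterByExpr and scaled with TMM in edgeR 4.0.16 (R 4.3.3), which left 14172 genes. One robust quasi-likelihood model covered the 3 groups; two-sided p-values were adjusted by Benjamini-Hochberg across the 14172 genes and called under 0.05, with no minimum fold. Group levels are mean ± SD, n = 4, in CPM; log2 fold changes carry their SE. Alternatives used limma 3.58.1 (voom, and log2(RPKM + 0.1) or log2(RPKM + 1)), DESeq2 1.42.0, other scaling and filters, a replicate block, and leaving out each library. The functions were tested on simulated data.

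The members and gene lists were chosen with earlier results of these data known. Named genes were all 8 members, the called genes of each related list (at most the 4 largest by fold) and the 5 genes, outside the members, nearest to Tkt and to Pgd in centred log2 CPM with a prior count of 2. A few related genes that this rule names are not reported here; the counts of their lists include them. Coordinates and exon overlaps are from GENCODE M21 (GRCm38, the assembly of mm10), promoters from RefSeq GRCm38.p6; positions are 1-based.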

Additional observations from a re-analysis of the deposited data

Results flagged for a closer look

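In groups of 4 libraries, 24 member and group combinations were examined for a library far from the others, and 2 were found, where about 1 in 20 groups is found by chance. Rpe, the pentose phosphate epimerase, stood at 45.3 CPM in HFD replicate 2, where replicates 1, 3 and 4 had 39.0 to 39.8 CPM. H6pd stood at 374 CPM in ND replicate 3 against 307 to 313 CPM in the other ND libraries.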

How the results depend on the processing

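Beside the values reported, 10 other settings and 12 fits that each left out 1 library were run. In HFD against ND 0 members were called in all 22. In HFD+MEC1 against HFD the 1 member called became 0 with library totals, limma-voom, the compared groups only and all 3 RPKM settings, 2 with no count filter and 3 with DESeq2, and 0 to 2 over the libraries left out. Over all genes the 4 calls of that comparison became 17 of 18245 with no count filter and 365 of 14172 with DESeq2. They ran from 0 to 460 over the libraries left out. In HFD+MEC1 against ND the 3 became 2 with library totals and RPKM at a pseudocount of 0.1 (Tkt lost) and with limma-voom and the compared groups only (H6pd lost), 1 with RPKM at a pseudocount of 1 and 0 with RPKM unfiltered, and 1 to 3 over the libraries left out. Related genes called in HFD against ND went from 13 to 21 with DESeq2 and 8 with RPKM unfiltered, and 5 to 19 over the libraries left out. In HFD+MEC1 against HFD they went from 0 to 2 with no count filter and 18 with DESeq2, and 0 to 15 over the libraries left out. In HFD+MEC1 against ND they went from 8 to 6 with no count filter and with the compared groups only, to 5 with library totals and with both filtered RPKM settings and to 3 with RPKM unfiltered, and 5 to 9 over the libraries left out. The highest number over the other settings was 10. Calls over all genes moved as well. The 893 of HFD against ND became 1391 with DESeq2 and 693 with RPKM unfiltered, and 423 to 1109 over the libraries left out. The 644 of HFD+MEC1 against ND became 1155 with DESeq2, 604 with no count filter, 517 with the compared groups only and 606 with library totals. With filtered RPKM they were 605 and 570, with RPKM unfiltered 419, and over the libraries left out 334 to 678. The cause of these moves was not tested. Library totals moved the median of all genes in HFD against ND to 0.12, and 79.5% of called genes were then higher, against 53.2% with TMM; in HFD+MEC1 against ND the share went from 47.2% to 66.8%.

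The signs of some small differences of 3 genes turned. Pgls in HFD against ND became 0.058 with library totals and 0.032, 0.031 and 0.032 with the RPKM settings (-0.14 to 0.049 over the libraries left out); in HFD+MEC1 against ND 0.027 and 0.042, 0.040 and 0.042 (-0.12 to 0.0895); and in HFD+MEC1 against HFD -0.031 with library totals (-0.044 to 0.13). G6pdx in HFD+MEC1 against HFD became -0.053 with library totals, -0.0055 with limma-voom, and -0.016, -0.0099 and -0.016 with RPKM (-0.14 to 0.16 over the libraries left out). Rpia in HFD against ND ran from -0.024 to 0.26 over the libraries left out.

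Equal replicate numbers are not said to pair samples, and the deviations of same-numbered libraries correlated at -0.0942 to 0.133, over 0.1 in 1 of 12 pairs; 4 of 12 libraries correlated best with their own number. With the number as a replicate block, 0, 1 and 3 members were called in HFD against ND, HFD+MEC1 against HFD and HFD+MEC1 against ND, and 15, 2 and 8 related genes; over all genes the block gave 896, 21 and 716 calls against 893, 4 and 644, and G6pdx in HFD+MEC1 against HFD became -0.00094.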

Other observations

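Outside the pathway, the 5 genes most like Pgd by the root-mean-square difference of centred log2 CPM over the 12 libraries were Mcee (0.20), Tuba1c, Tmem135, Acsl5 and Eno1b (each 0.22), all farther from Pgd than Pgd is from Tkt (0.19). Mcee, an epimerase of propionate breakdown, stood at 29.9 CPM in ND, 33.2 CPM under HFD and 23.9 CPM in HFD+MEC1. Acsl5, which activates fatty acids, stood at 395, 424 and 285 CPM, and Tmem135, a membrane protein gene, at 98.2, 104.5 and 73.3 CPM. Tuba1c, a tubulin gene, shares 52.7% of the 50-base stretches of its transcripts with other genes.

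Shpk encodes sedoheptulokinase, whose substrate is the sugar that transketolase and transaldolase exchange in phosphorylated form. It stood at 41.6 ± 2.78 CPM in ND, 45.4 ± 5.11 CPM under HFD and 35.4 ± 3.46 CPM in HFD+MEC1, with every HFD+MEC1 library below the other 8. Against ND the groups nearly met, at 38.51 CPM in the highest HFD+MEC1 library and 38.57 CPM in the lowest ND library. Of all genes 3.98% were lower without overlap against HFD and 5.84% against ND. Shpk did not pass with edgeR (adjusted p = 0.121 against HFD and 0.191 against ND). The genes that turn ribose phosphate toward nucleotides showed small values: Prps1 had log2 fold changes of 0.01 ± 0.10 against HFD and -0.11 ± 0.10 against ND in HFD+MEC1, and Prps2 of -0.02 ± 0.12 and 0.00051 ± 0.12.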
